A study of Danio rerio with 9 samples.

Results

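The insulin-like growth factor (IGF) axis and the growth hormone receptors were followed through 10 genes. These were chosen by name, with earlier results of these data known, as rows of the count table, of 28802 rows in all. They were the binding proteins igfbp1a, igfbp1b and igfbp2a, the ligands igf1, igf2a and igf2b, the IGF receptors igf1ra and igf1rb, and the growth hormone receptors ghra and ghrb. All 10 were present and all 10 passed the filter on low counts, which kept 21694 rows. RNA came from whole zebrafish larvae at 8 days post fertilization, in a study of FAM177A1, a protein of the Golgi complex. Double mutants carried 2 copies each of stl700, an allele of fam177a1a, and stl746, an allele of fam177a1b, single mutants were homozygous for stl700 alone, and wild-type larvae stood under the name of the AB line in the count table. Each genotype had 3 libraries, and each library was made from 7 pooled larvae after depletion of ribosomal RNA. Whether the pools of a genotype stem from separate clutches, or from siblings of the other genotypes, is not in the labels, so p-values measure the spread between these pools only.

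Growth hormone from the pituitary binds its receptor, mainly in liver and muscle, and the receptor signals through JAK2 and STAT5, which drive transcription of igf1. IGF ligands act through receptor tyrosine kinases that signal through insulin receptor substrates, PI3-kinase and AKT, and binding proteins in blood and tissue fluid hold the ligands and limit their access to the receptors. Igfbp1 is a secreted liver product. In mammals it is induced by fasting and repressed by insulin, and in zebrafish embryos it is induced by low oxygen and slows growth. Zebrafish keep duplicate copies of several of these genes, which is why igfbp1, igf2, igf1r and ghr each appear as an a and a b gene. The names are those of the deposited table. Older sources may use igf2a and igf2b the other way round, since each of these symbols is recorded as an older name of the other gene, and igfbp2b is likewise recorded as an older name of igfbp2a.

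Counts assigned to genes came to between 16978591 and 19276480 per library in the double mutants, between 17175936 and 18256978 in the single mutants and between 18297048 and 24717581 in wild type, so that 3 counts corresponded to between 0.121 and 0.178 CPM, the usual counts scaled to a common library total. The targeted row, fam177a1, held 15, 9 and 8 counts in the double-mutant libraries and 8, 14 and 11 counts in the single-mutant ones, against 669, 490 and 487 counts in wild type. There is no value here for fam177a1b by itself. On the first principal component of all genes (55.4% of the variance), single-mutant replicate 1 lay at −26.8, close to the double mutants between −26.2 and −22.3. The other single-mutant libraries were at −39.5 and −43.7 and wild type between 60.2 and 61.75. On the second component (16.5%), single-mutant replicate 1 lay at 1.98, apart from the other single-mutant libraries at −34.1 and −38.0. There the double mutants lay between 25.8 and 31.5 and wild type between −7.45 and −2.88. Fits without single-mutant replicate 1 are given below for igfbp2a, igf1, igf1ra and igf1rb, and for igfbp1b between the mutants. They are not given for every gene in which that library stood apart. The row Metazoa_SRP, an RNA of the signal recognition particle, held between 5.98% and 6.98% of the counts in double mutants, 4.79% to 5.41% in single mutants and 3.83% to 4.80% in wild type, so that double mutants lay apart from wild type, and its part in the results below was not tested. Of 16 hepatocyte markers none was at 0, and their summed level was 4122 to 4316 CPM in double mutants, 3544 to 4387 CPM in single mutants and 3054 to 3541 CPM in wild type. Of 11 markers spanning the tissues of a larva 10 were in the table and 9 were tested. Of these 2 were higher and 1 lower in double mutants, and 4 higher and 1 lower in single mutants. Over all genes tested 14.2% were higher and 18.0% lower in double mutants, and 19.5% higher and 22.6% lower in single mutants. Whether the tissue markers depart from this was not tested. The marker hbaa1, a globin named after its values were seen, was at 0 in 6 of the 9 libraries.

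In double mutants against wild type 4 genes rose (igfbp1a, igfbp1b, igf2b and ghrb), none fell and 6 did not pass the test. In single mutants against wild type 6 rose (igfbp1a, igfbp1b, igf2b, igf1ra, igf1rb and ghrb), none fell and 4 did not pass. A call here is an edgeR adjusted p under 0.05, with the adjustment made over all genes tested. The background was high. In double mutants 32.2% of all tested genes were called, 14.2% higher and 18.0% lower, and in single mutants 42.0% were called, 19.5% higher and 22.6% lower. The median log2 fold change of the 10 genes was 0.30 in double mutants and 0.51 in single mutants, beside −0.01 over all genes tested in both comparisons. Since the 10 genes were chosen with earlier results of these data known, their distance from all genes is no separate support. The comparisons share the wild-type libraries, so their values are given side by side and are not independent of each other. Where libraries of different genotypes are said not to overlap, the share of all genes without such overlap was not taken. Directly between the double and the single mutants none of the 10 was called by edgeR, DESeq2 or limma-voom, against 1.67% of all genes by edgeR. At an unadjusted p under 0.05, edgeR had 2 of them, igfbp1b and igfbp2a. The share of all genes under that looser threshold was not taken, so this count has no background beside it.

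**Figure D1:**
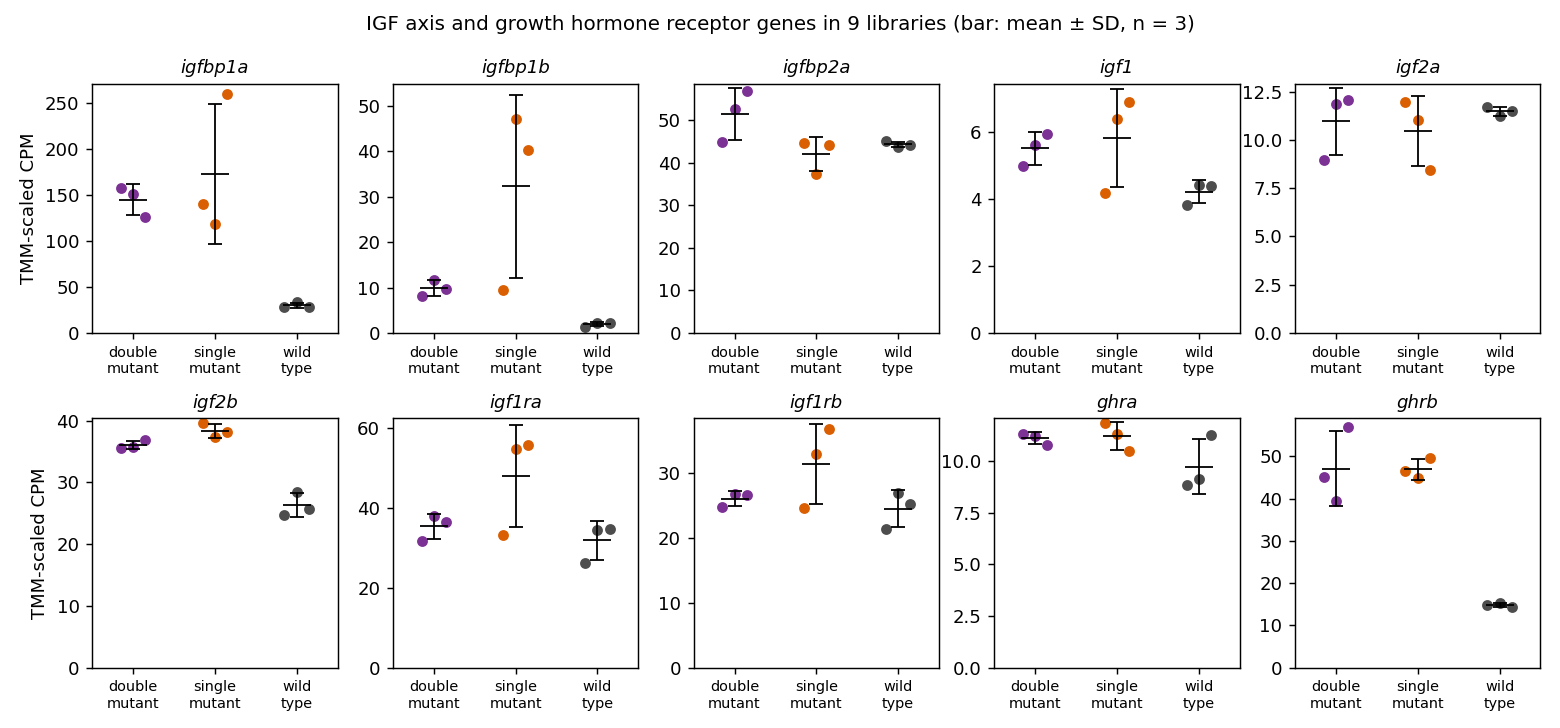
TMM-scaled CPM (vertical axis, linear from 0, a separate scale per gene) of the 10 genes in the 3 libraries of each genotype, with double mutants left, single mutants in the middle and wild type right. Points are libraries and bars are the mean ± SD. The mutant points of igfbp1a, igfbp1b, igf2b and ghrb all lie above the wild-type points, while 1 single-mutant point of igfbp1b, igf1, igf1ra and igf1rb lies well below the other two.

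The binding protein igfbp1a, 1 of the copies of the Igfbp1 gene, had the highest level of all 10 in both mutants. It stood at 158, 151 and 126 CPM in the double-mutant libraries, at 141, 119 and 259.7 CPM in the single-mutant libraries and at 28.5, 33.4 and 28.3 CPM in the wild-type libraries. Every mutant library lay far above every wild-type library, and single-mutant replicate 3 was the highest of all. The mean was 145 ± 16.8 CPM in double mutants, 173 ± 75.8 CPM in single mutants and 30.1 ± 2.86 CPM in wild type (SD, n = 3 each). The rise was 4.84-fold in double mutants (log2 fold change 2.27, SE 0.31, edgeR adjusted p = 0.00203) and 5.76-fold in single mutants (2.53, SE 0.31, edgeR adjusted p = 0.000897). Double minus single mutants gave −0.25 on the log2 scale, with a 95% interval from −0.96 to 0.45 (edgeR adjusted p = 0.713).

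The other copy, igfbp1b, was the least abundant of the 10 genes in wild type and had the largest fold change of them. It had 139, 210 and 186 counts in the double mutants, 165, 796 and 705 counts in the single mutants and 34, 40 and 48 counts in wild type. Scaled, these were 8.25, 11.7 and 9.73 CPM in double mutants, 9.44, 47.2 and 40.3 CPM in single mutants and 1.37, 2.13 and 2.20 CPM in wild type. All mutant libraries were above all wild-type libraries. Single-mutant replicate 1 lay within the range of the double mutants, whereas replicates 2 and 3 lay far above the double mutants. In double mutants the rise was 5.25-fold (log2 fold change 2.39, SE 0.72, edgeR adjusted p = 0.0471), and in single mutants it was 17.1-fold (4.10, SE 0.69, edgeR adjusted p = 0.00383). The call in double mutants sat at the threshold. It was lost with limma-voom (adjusted p = 0.0504), with no filter on low counts (0.0561), without double-mutant replicate 1, 2 or 3 (0.0842, 0.115 and 0.0979), without single-mutant replicate 3 (0.0631) and without wild-type replicate 1, 2 or 3 (0.134, 0.106 and 0.103), with log2 fold changes between 2.21 and 2.53 in these fits.

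For igfbp1b, double minus single mutants gave −1.70 on the log2 scale (95% interval −3.09 to −0.32, edgeR adjusted p = 0.202), a difference that did not pass the test over all genes. Without single-mutant replicate 1 it was −2.14 (edgeR adjusted p = 2.4e-09). That fit called 3860 of 21984 tested genes between the mutants, against 362 of 21694 with all libraries. Passing the test there is thus not particular to igfbp1b. The balance of the copies also varied within the single mutants. Per kilobase of transcript, counts of igfbp1a were 14.0, 9.50 and 9.52 times those of igfbp1b in the double mutants, 10.9, 1.85 and 4.73 times in the single mutants and 15.2, 11.47 and 9.42 times in wild type. The ranges of double mutants and wild type overlapped nearly in full, and only single-mutant replicates 2 and 3 lay below them.

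Igfbp1 is made in liver, and the hepatocyte markers are set beside it. In whole-larva RNA, more cells of a type and more RNA per cell cannot be told apart. Of the 16 markers, 10 rose and 1 (ttr, a thyroid hormone carrier, named after its values were seen) fell in double mutants against wild type. In single mutants 9 rose and none fell. Over all genes tested, 14.2% were higher and 18.0% lower in double mutants, and 19.5% higher and 22.6% lower in single mutants. The median log2 fold change of the markers was 0.41 in double mutants and 0.27 in single mutants. The part of the markers in the rise of igfbp1a was not tested, and the values below set the gene against them. The liver fatty acid binding protein fabp10a, named after its values were seen, had 554 ± 34.5 CPM in double mutants, 539.7 ± 60.6 CPM in single mutants and 450.4 ± 37.5 CPM in wild type. It was called higher in double mutants (log2 fold change 0.30, edgeR adjusted p = 0.014) and in single mutants (0.26, edgeR adjusted p = 0.0225). The largest part of the marker sum was apoa2, named after its values were seen and not called in either mutant. Its mean was 1954 CPM in double mutants, 1885 CPM in single mutants and 1765 CPM in wild type. Taken per 1000 counts of the 16 markers, igfbp1a had 38.4, 35.1 and 30.5 counts in the double mutants, 32.1, 33.5 and 67.8 counts in the single mutants and 8.10, 9.42 and 9.27 counts in wild type. The mutants and wild type did not overlap on this scale either (exact permutation test, two-sided, p = 0.1 for each mutant, the smallest p that 3 against 3 libraries allow, and 0.2 after adjustment over 8 ratios in 3 comparisons). Since igfbp1a was already called higher, the gap is no separate support for its rise.

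The binding protein igfbp2a, also secreted, did not pass the test in either mutant. It had 44.9, 52.6 and 56.9 CPM in the double mutants, 44.7, 37.4 and 44.1 CPM in the single mutants and 45.0, 43.8 and 44.2 CPM in wild type. The single mutants and wild type overlapped, and double-mutant replicate 1 lay inside the wild-type range while the other two double-mutant libraries lay above it. On the log2 scale the change was 0.22 in double mutants (95% interval 0.01 to 0.42, edgeR adjusted p = 0.1) and −0.08 in single mutants (−0.28 to 0.13, edgeR adjusted p = 0.566). Double minus single mutants gave 0.29 (edgeR adjusted p = 0.14), and without single-mutant replicate 1 this difference was 0.34 and passed the test (edgeR adjusted p = 0.0184). So did the difference in 3860 of the 21984 genes tested in that fit. The call of igfbp2a in double mutants against wild type appeared in the fit of those 6 libraries alone (edgeR adjusted p = 0.0234), without double-mutant replicate 1 (0.0285), without single-mutant replicate 1 (0.0462) and, just under the threshold, without single-mutant replicate 2 (0.05 when rounded).

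Among the ligands igf2b, 1 of the copies of the fetal growth factor Igf2, rose in both mutants. Its levels were 35.6, 35.8 and 36.9 CPM in double mutants, 39.6, 37.3 and 38.2 CPM in single mutants and 24.7, 28.5 and 25.8 CPM in wild type. The libraries of each genotype lay close together, the mutants did not overlap wild type, and single-mutant replicate 1 did not stand apart here. The rise was 1.37-fold in double mutants (log2 fold change 0.46, SE 0.08, edgeR adjusted p = 0.00071) and 1.46-fold in single mutants (0.55, SE 0.08, edgeR adjusted p = 0.000113). Double minus single mutants gave −0.09 (95% interval −0.26 to 0.09).

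Its partner igf2a had 8.96, 11.9 and 12.1 CPM in double mutants, 11.96, 11.02 and 8.45 CPM in single mutants and 11.7, 11.3 and 11.48 CPM in wild type. The mutant libraries spread to both sides of the wild-type libraries, and the log2 fold change was −0.07 in double mutants (95% interval −0.37 to 0.24, edgeR adjusted p = 0.77) and −0.13 in single mutants (−0.44 to 0.18, edgeR adjusted p = 0.495). Within each library, igf2b per kilobase was 2.45, 1.86 and 1.88 times igf2a in double mutants, 2.04, 2.09 and 2.79 times in single mutants and 1.30, 1.56 and 1.39 times in wild type. This ratio did not overlap between either mutant and wild type (exact permutation test, two-sided, p = 0.1, the smallest possible, and 0.2 after adjustment over 8 ratios in 3 comparisons). As igf2b was already called higher, the gap is no separate support.

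The ligand igf1, the main growth hormone target of the axis, was the lowest of the 3 ligands. It had 4.99, 5.62 and 5.96 CPM in double mutants, 4.18, 6.40 and 6.91 CPM in single mutants and 3.83, 4.42 and 4.41 CPM in wild type. The double mutants were above wild type in 3 of 3 libraries and the single mutants in 2 of 3, with replicate 1 inside the wild-type range. The log2 fold change was 0.39 in double mutants (95% interval −0.01 to 0.79, edgeR adjusted p = 0.123) and 0.47 in single mutants (0.07 to 0.87, edgeR adjusted p = 0.056), so neither was called. Without single-mutant replicate 1 both were, at 0.39 in double mutants (edgeR adjusted p = 0.049) and 0.66 in single mutants (edgeR adjusted p = 0.00298). That fit called 8697 of 21984 tested genes in double mutants and 10363 in single mutants against wild type. The call in single mutants also appeared under 5 of the other settings (edgeR adjusted p from 0.0404 to 0.0476), and that in double mutants with the 6 libraries alone (0.0497).

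Set against the ligands, the 2 igfbp1 genes took a larger part of the axis in the mutants. Per kilobase, the summed counts of igfbp1a and igfbp1b were 5.07, 4.55 and 3.66 times the summed counts of igf1, igf2a and igf2b in double mutants, 4.16, 4.81 and 8.49 times in single mutants and 1.07, 1.18 and 1.06 times in wild type. In wild type the igfbp1 transcripts were thus about level with those of the ligands, and in every mutant library they were well above them. The ratio did not overlap between either mutant and wild type (exact permutation test, two-sided, p = 0.1, the smallest possible, adjusted 0.2). Both igfbp1 genes were already called higher, so this gap is no separate support. For igfbp2a the same ratio was 1.44 ± 0.0769 in double mutants, 1.15 ± 0.128 in single mutants and 1.52 ± 0.0831 in wild type (SD, n = 3 each). Only the single mutants lay wholly below wild type, and they lay wholly below the double mutants too (exact permutation test, two-sided, p = 0.1 for each, adjusted 0.2). The denominator holds igf2b, already called higher, so the gap from wild type is no separate support.

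**Figure D2:**
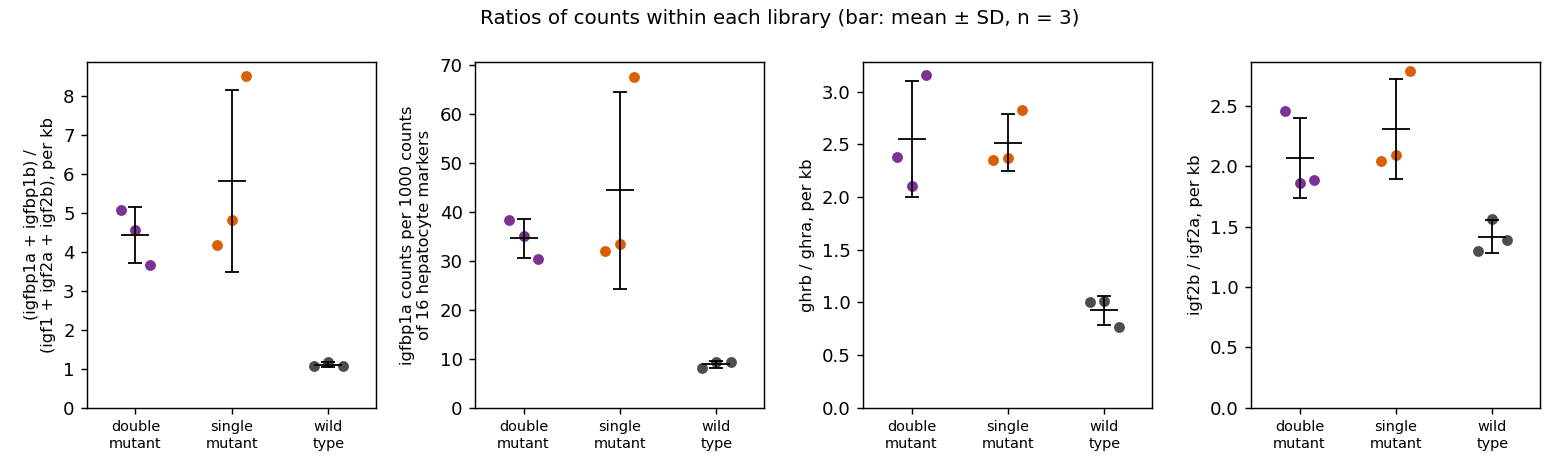
Ratios formed within each library, from left to right igfbp1a plus igfbp1b over the 3 ligands per kilobase, igfbp1a per 1000 counts of 16 hepatocyte markers, ghrb over ghra per kilobase and igf2b over igf2a per kilobase. Points are libraries, bars the mean ± SD, all vertical axes start at 0, and in all 4 panels the double and single mutants lie above wild type without overlap. The 4 are part of 8 ratios, and their numerators are genes already called higher, so the gap is no separate support. The ratios of igf1rb to igf1ra and of igfbp1a to igfbp1b, not shown, overlapped wild type in both mutants.

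The receptors for IGF, igf1ra and igf1rb, are tyrosine kinases that bind Igf1 and Igf2. The first of them, igf1ra, had 31.8, 37.8 and 36.4 CPM in double mutants, 33.1, 54.6 and 55.8 CPM in single mutants and 26.1, 34.5 and 34.8 CPM in wild type. The double mutants overlapped wild type. In the single mutants replicates 2 and 3 were above every other library and replicate 1 was not. The log2 fold change was 0.15 in double mutants (95% interval −0.30 to 0.61, edgeR adjusted p = 0.606) and 0.59 in single mutants (0.14 to 1.04, edgeR adjusted p = 0.0409).

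The copy igf1rb had the same arrangement of libraries at a smaller size. Its values were 24.8, 26.9 and 26.6 CPM in double mutants, 24.7, 32.9 and 36.8 CPM in single mutants and 21.4, 27.0 and 25.2 CPM in wild type. Again single-mutant replicates 2 and 3 were the highest of the 9 and replicate 1 was inside the wild-type range. The log2 fold change was 0.09 in double mutants (95% interval −0.19 to 0.37, edgeR adjusted p = 0.635) and 0.36 in single mutants (0.09 to 0.64, edgeR adjusted p = 0.0354). The ratio of igf1rb to igf1ra per kilobase was 0.387 ± 0.0185 in double mutants, 0.350 ± 0.0376 in single mutants and 0.405 ± 0.0253 in wild type (SD, n = 3 each), with overlap between all genotypes.

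The 2 receptor calls in single mutants depended on single libraries. For igf1ra the call was lost without single-mutant replicate 2 or 3 (edgeR adjusted p = 0.107 and 0.0976), without wild-type replicate 1, 2 or 3 (0.0918, 0.0636 and 0.0615), with the 6 libraries alone (0.0571) and with no filter on low counts (0.055). For igf1rb it was lost without single-mutant replicate 2 or 3 (edgeR adjusted p = 0.0772 and 0.117), without wild-type replicate 1 or 3 (0.106 and 0.0704), with the 6 libraries alone (0.0643) and with limma-voom (0.0512). Without single-mutant replicate 1 the change in single mutants was 0.80 for igf1ra (edgeR adjusted p = 1.46e-05) and 0.51 for igf1rb (edgeR adjusted p = 0.000247). Leaving out that library, 10363 of 21984 tested genes were called in single mutants against wild type. In that fit double minus single mutants passed the test in 3860 of 21984 genes tested. Both receptors were among them, at −0.64 for igf1ra (edgeR adjusted p = 0.000553) and −0.42 for igf1rb (edgeR adjusted p = 0.00548). With all libraries those differences were −0.44 for igf1ra (edgeR adjusted p = 0.293) and −0.27 for igf1rb (edgeR adjusted p = 0.287).

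The growth hormone receptor ghrb gave the smallest adjusted p of the 10 genes. It had 45.1, 39.4 and 56.8 CPM in double mutants, 46.5, 44.8 and 49.6 CPM in single mutants and 14.8, 15.4 and 14.3 CPM in wild type. No mutant library came near the wild-type range, and single-mutant replicate 1 lay between the other two single-mutant libraries. The rise was 3.18-fold in double mutants (log2 fold change 1.67, SE 0.12, edgeR adjusted p = 1e-07) and 3.17-fold in single mutants (1.66, SE 0.12, edgeR adjusted p = 8.6e-08). The difference of double minus single mutants was 0.01, with a 95% interval from −0.23 to 0.24.

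The other receptor, ghra, had 11.3, 11.2 and 10.8 CPM in double mutants, 11.9, 11.3 and 10.5 CPM in single mutants and 8.83, 9.11 and 11.3 CPM in wild type. Wild-type replicate 3 overlapped both mutants, and the log2 fold change was 0.19 in double mutants (95% interval −0.07 to 0.46, edgeR adjusted p = 0.259) and 0.21 in single mutants (−0.06 to 0.47, edgeR adjusted p = 0.201). Per kilobase, ghrb was 2.38, 2.10 and 3.16 times ghra in double mutants, 2.35, 2.37 and 2.83 times in single mutants and 1.001, 1.01 and 0.763 times in wild type. The receptors were therefore at about equal levels in wild type, and ghrb was the more abundant in every mutant library (exact permutation test, two-sided, p = 0.1 for each mutant, the smallest possible, adjusted 0.2). As ghrb was already called higher, this is no separate support.

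**Figure D3:**
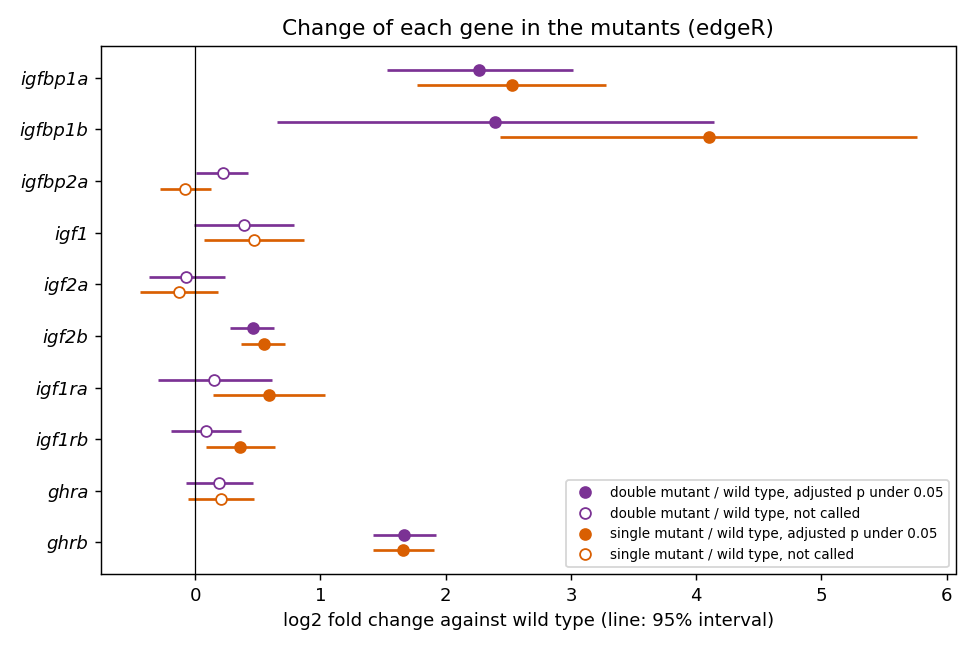
Log2 fold change against wild type (horizontal axis) of each of the 10 genes, with double mutants above single mutants in each pair, lines for the 95% interval and filled points for an edgeR adjusted p under 0.05. The points of ghrb are at 1.67 in double and 1.66 in single mutants, those of igfbp1b at 2.39 in double and 4.10 in single mutants with wide intervals, and the intervals of igf2a and ghra cross 0 in both mutants.

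The order of the levels changed as well. In CPM per kilobase, double mutants had igfbp1a first at 82.0 ± 9.45, then igfbp2a at 29.5 ± 3.50, ghrb at 11.96 ± 2.26, igf2b at 10.7 ± 0.202 and igfbp1b at 7.61 ± 1.33 (SD, n = 3). Below them igf1ra, igf2a, ghra and igf1 lay between 4.46 and 5.47 and igf1rb was last at 2.11. Single mutants had igfbp1a first at 97.6 ± 42.8, then igfbp1b at 24.9 ± 15.5, igfbp2a at 24.1 ± 2.31, ghrb at 11.9 ± 0.617 and igf2b at 11.3 ± 0.342, and igf1rb last at 2.55. In wild type igfbp2a was first at 25.4 ± 0.358, igfbp1a followed at 16.96 ± 1.61 and igf2b at 7.77 ± 0.572, while ghrb was seventh of 10 at 3.76 ± 0.131 and igfbp1b was last at 1.46 ± 0.355. Neighbours closer than the larger of their SDs were ghrb and igf2b, and all neighbours among igf1ra, igf2a, ghra and igf1, in double mutants. In single mutants they were igfbp1b and igfbp2a, ghrb and igf2b, igf2a and ghra, and ghra and igf1, and in wild type igf2a and igf1ra, and ghra and ghrb. No rank moved when TPM was used in place of CPM per kilobase. This was nearly fixed in advance, since both scales order the genes within a library alike, and it is no check of the order.

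The other genes of the pathway were counted in 7 lists with 109 genes, of which 107 were in the table and 95 were tested. In double mutants against wild type 23 rose, 9 fell and 63 did not pass, and in single mutants 28 rose, 13 fell and 54 did not pass. The median log2 fold change was 0.17 in double mutants and 0.21 in single mutants. With higher and lower counted together, the shares called were close to the background of all genes given above. Counted apart, in both mutants the share higher was above that background and the share lower was below it. As the lists were chosen with earlier results of these data known, this is no separate support. The same background holds for the counts of each list below, and whether the lists depart from it was not tested. Between double and single mutants 1 (rheb) was higher and 2 (stc2b and pdpk1a) were lower of the 95 tested, against 1.67% of all genes. These were named after their values were seen.

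Among the other IGF binding proteins and carriers (8 genes, 7 tested), 1 rose and none fell in double mutants, and 3 rose and none fell in single mutants. The binding protein igfbp2b, the duplicate of igfbp2a, had 21.1, 24.0 and 21.7 CPM in double mutants, 26.5, 21.8 and 20.8 CPM in single mutants and 16.5, 11.99 and 14.8 CPM in wild type. Under the names of the deposited table, its mutant and wild-type libraries did not overlap, whereas those of igfbp2a did. How many of all genes lack such overlap was not taken. The log2 fold change of igfbp2b was 0.62 in double mutants (edgeR adjusted p = 0.00159) and 0.67 in single mutants (edgeR adjusted p = 0.000619). In single mutants igfals, the carrier subunit of circulating IGF complexes, changed by 0.52 (edgeR adjusted p = 0.0122) and igfbp6b by 0.66 (edgeR adjusted p = 0.0492). The call of igfals was lost without single-mutant replicate 3 (edgeR adjusted p = 0.0513), and igfbp6b kept its call in 8 of 19 alternative fits, losing it when any library but single-mutant replicate 1 or wild-type replicate 1 was left out (0.051 to 0.206). Of the 7 tested IGFBP proteases (pappalysins) and the stanniocalcins that inhibit them, none was called in either mutant against wild type.

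Growth hormone itself was not called. Its gene gh1, named after its values were seen, had 6.47, 7.56 and 9.62 CPM in double mutants, 8.76, 11.1 and 10.7 CPM in single mutants and 9.19, 10.02 and 6.11 CPM in wild type, with overlap between the genotypes and log2 fold changes of −0.09 (95% interval −0.50 to 0.31) in double mutants and 0.27 (−0.13 to 0.67) in single mutants. Of the 15 genes of the growth hormone family and its pituitary control, 8 were tested. None was called in double mutants and 1 rose in single mutants, the prolactin receptor prlra (log2 fold change 0.53, edgeR adjusted p = 0.0125), a call that was lost without wild-type replicate 3 (0.0548).

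Below the growth hormone receptor, 15 of 16 genes of JAK2 and STAT5 signalling were tested, of which 7 rose and 1 fell in double mutants and 6 rose and 2 fell in single mutants. Those that rose included suppressors of cytokine signalling, the feedback inhibitors of the pathway, which are also induced by other cytokine receptors. The mRNA of socs3b averaged 46.9 ± 4.27 CPM in double mutants, 58.3 ± 20.1 CPM in single mutants and 17.8 ± 2.25 CPM in wild type (SD, n = 3 each, log2 fold change 1.40 in double mutants, edgeR adjusted p = 0.00342, and 1.71 in single mutants, edgeR adjusted p = 0.00087). Its relative socs1a changed by 1.36 in double mutants (edgeR adjusted p = 0.00375) and 1.69 in single mutants (0.000676). The gene cishb, whose mammalian counterpart is a STAT5 target, changed by 1.25 in double mutants (edgeR adjusted p = 0.000963) and 1.0 in single mutants (0.00354).

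A further feedback gene, socs2, whose loss causes overgrowth in mice, had 14.3, 14.9 and 24.0 CPM in double mutants, 13.2, 10.7 and 13.8 CPM in single mutants and 9.96, 8.85 and 9.23 CPM in wild type. All mutant libraries lay above wild type. It passed the test in double mutants (log2 fold change 0.92, edgeR adjusted p = 0.00183) and not in single mutants (0.43, edgeR adjusted p = 0.0812), and double minus single mutants gave 0.50 (edgeR adjusted p = 0.177). The kinase jak2a fell, to 40.7 ± 1.02 CPM in double mutants and 39.2 ± 2.24 CPM in single mutants against 51.4 ± 1.58 CPM in wild type (log2 fold change −0.34 in double mutants, edgeR adjusted p = 0.00381, and −0.39 in single mutants, 0.000933). Its duplicate jak2b, named after its values were seen, was not called (0.02 in double mutants, edgeR adjusted p = 0.888, and −0.02 in single mutants, 0.869). The phosphatase ptpn6, mainly of blood cells in mammals, fell in single mutants (−0.69, edgeR adjusted p = 0.000857).

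Of 9 other ligands and receptors of the IGF and insulin family 6 were tested, with 2 higher and 1 lower in double mutants and 3 higher and 1 lower in single mutants. Both insulin receptors rose. The level of insrb was 56.6 ± 3.93 CPM in double mutants, 69.1 ± 10.3 CPM in single mutants and 39.8 ± 0.248 CPM in wild type (SD, n = 3 each, log2 fold change 0.51 in double mutants, edgeR adjusted p = 0.00132, and 0.79 in single mutants, 2.12e-05). The level of insra was 64.4 ± 3.06 CPM in double mutants, 66.9 ± 5.16 CPM in single mutants and 51.0 ± 1.74 CPM in wild type (log2 fold change 0.34 in double mutants, edgeR adjusted p = 0.00451, and 0.39 in single mutants, 0.0011). The scavenger receptor igf2r passed in single mutants (0.35, edgeR adjusted p = 0.0148). The insulin-like peptide insl5a fell by 0.93 in double mutants (edgeR adjusted p = 0.0314) and by 1.06 in single mutants (edgeR adjusted p = 0.0138) on the log2 scale. Its mean was 1.30 CPM in double mutants, 1.19 CPM in single mutants and 2.49 CPM in wild type. The call was lost without double-mutant replicate 1 or 2 and wild-type replicate 1 or 2 in the double mutants (edgeR adjusted p = 0.131, 0.113, 0.129 and 0.0664) and without single-mutant replicate 2 or 3 and wild-type replicate 1 in the single mutants (0.0592, 0.0807 and 0.0709).

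In the insulin and IGF signalling cascade 48 of 50 genes were tested, of which 12 rose and 6 fell in double mutants and 14 rose and 9 fell in single mutants. Over all genes 14.2% were higher and 18.0% lower in double mutants, and 19.5% higher and 22.6% lower in single mutants. The receptor adaptor irs1 averaged 33.7 ± 1.42 CPM in double mutants, 40.3 ± 5.83 CPM in single mutants and 19.6 ± 2.49 CPM in wild type (SD, n = 3 each, log2 fold change 0.78 in double mutants, edgeR adjusted p = 0.000136, and 1.03 in single mutants, 6.94e-06). The adaptor irs4a changed by 0.75 in double mutants (edgeR adjusted p = 0.00053) and 0.96 in single mutants (4.48e-05). The transcription factor foxo4, of the family that AKT keeps out of the nucleus, averaged 75.8 ± 0.425 CPM in double mutants, 105 ± 25.9 CPM in single mutants and 36.9 ± 1.51 CPM in wild type (log2 fold change 1.04 in double mutants, edgeR adjusted p = 0.00046, and 1.51 in single mutants, 2.61e-05).

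The largest change of the cascade was in irs2a, named after its values were seen, a receptor adaptor whose mammalian counterpart is induced by fasting in liver. It had 63.3, 72.5 and 66.3 CPM in double mutants, 56.8, 115.9 and 148 CPM in single mutants and 8.99, 12.8 and 10.6 CPM in wild type. All mutant libraries were several times above wild type and single-mutant replicate 1 was again the lowest of its genotype. The log2 fold change was 2.65 in double mutants (SE 0.37, edgeR adjusted p = 0.00229) and 3.32 in single mutants (SE 0.38, edgeR adjusted p = 0.000616).

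Genes of the cascade that fell included the adaptor shc1, at 35.6 ± 0.999 CPM in double mutants, 35.7 ± 1.85 CPM in single mutants and 51.2 ± 1.89 CPM in wild type (log2 fold change −0.53 in double mutants, edgeR adjusted p = 0.000142, and −0.52 in single mutants, 9.95e-05). The S6 kinase rps6kb1b, downstream of mTOR, changed by −0.44 in double mutants (edgeR adjusted p = 0.000689) and −0.65 in single mutants (1.81e-05). Of the 4 IGF2 mRNA-binding proteins, igf2bp2a rose by 0.34 in double mutants (edgeR adjusted p = 0.00836) and 0.36 in single mutants (0.00395) on the log2 scale. In the opposite direction igf2bp3 changed by −0.42 in double mutants (edgeR adjusted p = 0.000392) and −0.60 in single mutants (1.28e-05), and the other two were not called.

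**Figure D4:**
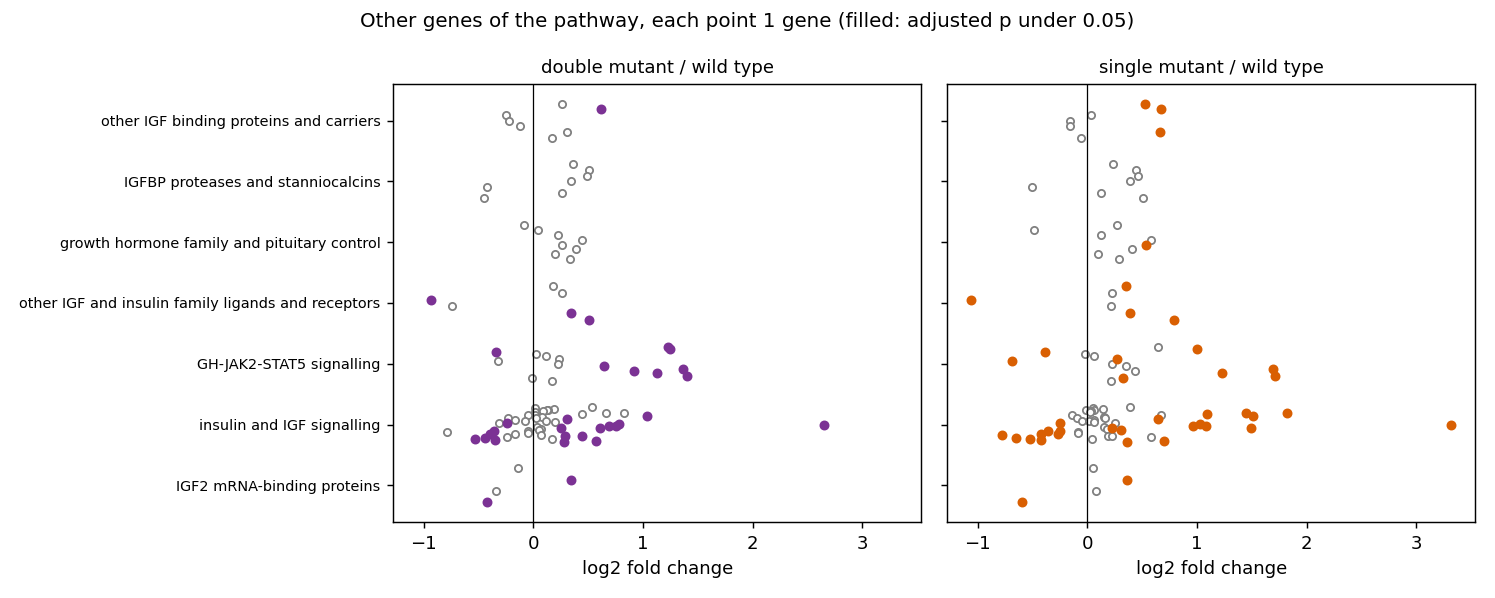
Log2 fold change (horizontal axis) of each tested gene of the 7 pathway lists (rows), double mutants against wild type in the left panel and single mutants against wild type in the right one. Filled points have an edgeR adjusted p under 0.05, and the point farthest to the right in both panels is irs2a, at 2.65 in double mutants and 3.32 in single mutants.

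Neighbouring genes were compared by their order in the GRCz12tu reference, from which names and order only were taken. The gene igfbp1a lies beside igfbp3, another binding protein, which was at 31.5 ± 1.01 CPM in double mutants, 38.2 ± 5.601 CPM in single mutants and 37.4 ± 2.93 CPM in wild type. It was not called in either mutant (log2 fold change −0.25 in double mutants, edgeR adjusted p = 0.0776, and 0.03 in single mutants, 0.85). Beside igfbp2a lies igfbp5a, also not called (−0.22 in double mutants, edgeR adjusted p = 0.175, and −0.16 in single mutants, 0.296). On its other side igfbp1a has usp24, which changed by 0.19 in double mutants (edgeR adjusted p = 0.0485) and 0.28 in single mutants (0.00546), and igfbp2a has stk11ip, which changed by 0.97 in double mutants (edgeR adjusted p = 1.06e-05) and 0.85 in single mutants (2.46e-05). Beside igf1rb, anpepa and lrrc28 were called in single mutants, at 0.41 (edgeR adjusted p = 0.0156) and −0.65 (0.0176), and in double mutants neither was. The neighbours nup37 of igf1 and cpt1aa of igf2a were lower in both mutants, with changes of −0.34 and −0.31 in double mutants (edgeR adjusted p = 0.0314 and 0.017) and −0.36 and −0.39 in single mutants (0.0189 and 0.00293), and si:ch211-288d18.1, also beside igf2a, was higher in single mutants (0.34, edgeR adjusted p = 0.0193). The neighbours of igfbp1b (adcy1b and znfl2a), igf2b (th and mrpl23) and igf1ra (fam169b and pgpep1l), bcat1 beside igf1 and fbxo4 beside ghra were not called in either mutant. Beside ghrb, oxct1b, an enzyme of ketone body use, changed by 0.52 in double mutants (edgeR adjusted p = 0.000232) and 0.41 in single mutants (edgeR adjusted p = 0.00103). The other neighbour of ghrb, ccdc152, was not in the count table. Beside ghra, selenop, a secreted selenium carrier, fell by 0.68 in double mutants (edgeR adjusted p = 8.86e-05) and by 0.58 in single mutants (0.000202) on the log2 scale. The neighbours were looked up after the values of the 10 genes were known. Over all genes tested 32.2% were called in double mutants and 42.0% in single mutants. Whether the neighbours depart from these shares was not tested.

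The genes most like each of 4 members across the 9 libraries were taken by Pearson's r of log2 CPM among 16445 genes. The r values describe 9 libraries that fall into 3 genotypes and share that division. Closest to igfbp1b were hivep1, tacc1 and casp9 (r from 0.993 to 0.995). The level of casp9, an initiator caspase, was 9.47 ± 0.666 CPM in double mutants, 17.8 ± 7.23 CPM in single mutants and 3.62 ± 0.219 CPM in wild type, with the same wide spread in single mutants. Closest to igfbp1a were ccn2a, a secreted matrix protein, frmd4ba and stard14 (r from 0.985 to 0.990). Closest to ghrb were bhlhe41, a clock repressor, ctrl, a pancreatic protease, and fstl1b (r from 0.989 to 0.990), and bhlhe41 stood at 78.9 ± 4.66 CPM in double mutants, 76.8 ± 7.06 CPM in single mutants and 23.7 ± 1.002 CPM in wild type. Closest to igf1ra were renbp, fat2 and pja2 (r from 0.982 to 0.993).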

How the data were processed

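RNA was measured in 9 libraries of whole larvae. The authors deposited raw counts, 1 row per gene name with a length in bases, and all sample columns matched a label (0 were left unused). The tools behind these counts, per the submitters' processing notes, were cutadapt, STAR and featureCounts, with DESeq2, on GRCz11. Versions, the strand setting and the handling of multiply mapped reads are not given in the sources used, so reads shared by duplicate genes may be split between them. Columns headed AB were taken as wild type.

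From the counts, rows were filtered with filterByExpr by genotype, scaled by TMM and tested with edgeR 4.0.16 (quasi-likelihood F test, robust) in R 4.3.3. All 9 libraries entered 1 fit with 6 residual degrees of freedom, and p-values were adjusted by Benjamini-Hochberg over 21694 genes. The common biological coefficient of variation was 11.4%. Alternatives, including DESeq2 1.42.0 and limma 3.58.1 (voom), came to 19 for each result. The fit was tested on simulated data. Levels of a gene are TMM-scaled CPM, and levels between genes are CPM per kilobase of the deposited length. Replicate numbers were not used as a block, since deviations of libraries with the same number correlated between −0.04 and 0.06. The SE was worked back from the edgeR F test, as the absolute log2 fold change divided by the square root of F. The 95% intervals were built from this SE with the t distribution, which is an approximation. They include the spread between libraries, while the limit of 3 counts covers counting error only.

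Named are the 10 genes, the row fam177a1, up to 4 called genes per list and comparison with the smallest adjusted p, and for likeness the 3 genes with the highest r of at least 1 CPM. Genes named outside this are marked. The members and lists were chosen with earlier results of these data known. A planned description of protein and promoter sequences was not made.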

Additional observations from a re-analysis of the deposited data

Results flagged for a closer look

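The pathway genes stc2b, pdpk1a and rheb differed between double and single mutants by a direct test across all genes. The stanniocalcin stc2b, an inhibitor of pappalysins, had 2.02, 2.503 and 2.82 CPM in double mutants and 3.55, 5.39 and 5.37 CPM in single mutants, beside 3.02, 3.52 and 3.54 CPM in wild type, a difference of −0.95 on the log2 scale (SE 0.21, edgeR adjusted p = 0.0338). The kinase pdpk1a, which activates AKT, had 8.31, 7.84 and 8.78 CPM in double mutants and 10.1, 19.2 and 16.8 CPM in single mutants, beside 5.24, 6.24 and 4.91 CPM in wild type, a difference of −0.88 (SE 0.19, edgeR adjusted p = 0.0386). The small GTPase rheb, an activator of mTOR, had 5.76, 7.62 and 6.43 CPM in double mutants and 3.26, 3.26 and 4.40 CPM in single mutants, beside 6.53, 6.08 and 6.20 CPM in wild type, a difference of 0.86 (SE 0.17, edgeR adjusted p = 0.0184). In none of the 3 did the double and single mutants overlap, which is no separate support, since the genes were picked by this test. The call of stc2b was kept in 10 of 19 alternative fits (edgeR adjusted p up to 0.142) and lost without double-mutant replicate 1, 2 or 3, single-mutant replicate 2 or 3 or wild-type replicate 2 or 3. That of pdpk1a was kept in 9 (up to 0.176) and lost without any library but single-mutant replicate 1. That of rheb was kept in 15 (up to 0.128) and lost without double-mutant replicate 2 or 3 or single-mutant replicate 2. With only the 6 libraries compared all 3 calls were lost, and with limma-voom 1 pathway gene was called. Single-mutant replicate 1 was the library of its genotype nearest to the double mutants in stc2b and pdpk1a.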

How the results depend on the processing

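The calls of igfbp1a, igf2b and ghrb in both mutants and of igfbp1b in single mutants held in all 19 alternatives, and no called change turned its direction in any of them. Uncalled changes near 0 did, among them igf2a in both mutants (from −0.12 to 0.08 in double mutants and from −0.24 to 0.04 in single mutants), igfbp2a in single mutants (−0.12 to 0.04) and igfbp1a in double minus single mutants (−0.48 to 0.15). Against wild type, igfbp1b in double mutants was called in 10 of 19, and igf1ra and igf1rb in single mutants in 12 and 13. The uncalled igf1 passed in 6 of 19 in single mutants (edgeR adjusted p from 0.00298 to 0.184) and 2 in double mutants, and igfbp2a in 4 in double mutants. Pathway genes called in double mutants came to 32, and to 50 with only the 6 libraries compared. Between double and single mutants, 362 of all genes were called, against 883 with DESeq2, 184 with only the 6 libraries compared and 108 to 3860 with 1 library left out (3860 without single-mutant replicate 1). Of the 10 genes none was called there, and 0 to 4 with 1 library left out. Of pathway genes 3 were called, against 7 with DESeq2, 1 with limma-voom, 0 with only the 6 libraries compared and 0 to 28 with 1 library left out, the most again without single-mutant replicate 1. The cause was not tested. With the replicate block 9054, 7006 and 373 genes were called in single mutants against wild type, double mutants against wild type and double against single mutants, and among the 10 genes the block changed the call of igf1 in single mutants alone (edgeR adjusted p = 0.0421).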
